A study of Homo sapiens with 6 samples.

Results

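The genes described here encode the enzymes that add and remove acetylation at lysine 16 of histone H4 (H4K16ac), with the partners of the writer. They are 10 of 19447 protein-coding genes of at least 1 kb in the RefSeq table of the human genome, and they were chosen by name: KAT8, MSL1, MSL2, MSL3, KANSL1, KANSL2, KANSL3, MCRS1, SIRT1 and SIRT2. The rule that lists them uses no measured value. Peaks of all 5 lists were mapped over each gene and 5 kb on either side of it.

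The cells were HEK293T, an established human line of embryonic kidney origin with SV40 large T antigen, and all libraries came from these cells with no treatment named in the labels. Chromatin was fixed with formaldehyde, sonicated and immunoprecipitated, and the DNA was sequenced (ChIP-seq). The antibodies were directed against the histone variant H2A.Z (labelled H2AZ, 1 antibody from CST and 1 from Abcam), the variant H3.3 (EMD/Millipore), H4K16ac (CST) and dimethylated lysine 79 of histone H3 (H3K79me2, CST). With 1 library per antibody no spread between replicates is known and no test was possible, and all comparisons below are descriptions of these libraries. The values of the input library were not used here.

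KAT8, also called MOF, is the acetyltransferase that writes H4K16ac. It works in the MSL complex, with the scaffold MSL1, the ubiquitin ligase MSL2 and the chromodomain protein MSL3, and in the NSL complex, with the scaffold KANSL1, KANSL2, KANSL3 and MCRS1. In Drosophila melanogaster the MSL complex acts on the male X chromosome in dosage compensation. SIRT1 and SIRT2 are NAD-dependent deacetylases that remove the mark, SIRT1 in the nucleus and SIRT2 mainly in the cytoplasm with access to chromatin in mitosis. H3K79me2, written by DOT1L, is known from the bodies of transcribed genes, and H2A.Z and H3.3 are known from nucleosomes at gene starts.

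The promoter sequences that frame the results are those of RefSeq, build GRCh38.p14, and each stretch ends at the base before the annotated start. Capitals mark matches to any of 7 searched motifs on either strand, where matches of the same or different motifs may overlap. The motifs were the GC box GGGCGG, the ETS core CCGGAA, the CCAAT box CCAAT, the TATA box TATAAA, the CRE TGACGTCA, the YY1 core ATGGCGG and the NRF1 motif GCGCATGC. The table matched 9 of the 10 genes, with 15 starts between them, and KAT8 is therefore described from both ends of the gene. MSL3 and SIRT1 are shown because they lacked H4K16ac peaks, and MSL1 because it carried the strongest H4K16ac peak over these genes.
MSL3 start 1, chrX:11757909-11758158, + strand: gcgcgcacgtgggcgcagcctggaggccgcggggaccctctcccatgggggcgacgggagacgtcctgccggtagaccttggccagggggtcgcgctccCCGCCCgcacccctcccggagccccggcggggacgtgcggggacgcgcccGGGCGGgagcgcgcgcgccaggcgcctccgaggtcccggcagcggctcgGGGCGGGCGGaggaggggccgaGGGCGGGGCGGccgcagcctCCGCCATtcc
SIRT1, chr10:67884406-67884655, + strand: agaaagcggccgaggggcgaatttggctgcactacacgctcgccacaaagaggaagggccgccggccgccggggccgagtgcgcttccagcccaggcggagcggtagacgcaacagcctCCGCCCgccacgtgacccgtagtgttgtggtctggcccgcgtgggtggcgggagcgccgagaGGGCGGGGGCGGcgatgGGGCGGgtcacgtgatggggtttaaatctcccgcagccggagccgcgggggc
MSL1, chr17:40121721-40121970, + strand: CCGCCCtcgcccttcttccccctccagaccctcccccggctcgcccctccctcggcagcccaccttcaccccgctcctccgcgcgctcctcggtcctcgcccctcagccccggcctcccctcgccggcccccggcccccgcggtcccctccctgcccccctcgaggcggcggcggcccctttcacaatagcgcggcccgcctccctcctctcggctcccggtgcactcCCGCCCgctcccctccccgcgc
The 3 annotated starts of KANSL1, numbered from the outermost inwards, are shown because the peaks lay at the inner pair.
KANSL1 start 1, chr17:46224760-46225009, - strand: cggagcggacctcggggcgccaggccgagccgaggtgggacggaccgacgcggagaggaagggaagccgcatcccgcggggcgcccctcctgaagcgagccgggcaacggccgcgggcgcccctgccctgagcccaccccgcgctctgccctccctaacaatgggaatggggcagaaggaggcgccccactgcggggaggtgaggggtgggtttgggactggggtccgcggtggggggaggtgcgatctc
KANSL1 start 2, chr17:46194051-46194300, - strand: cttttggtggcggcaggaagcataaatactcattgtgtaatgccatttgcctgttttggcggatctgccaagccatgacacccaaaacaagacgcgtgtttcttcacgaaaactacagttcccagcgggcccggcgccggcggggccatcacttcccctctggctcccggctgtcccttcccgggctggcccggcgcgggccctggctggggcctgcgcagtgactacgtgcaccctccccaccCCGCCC
KANSL1 start 3, chr17:46192783-46193032, - strand: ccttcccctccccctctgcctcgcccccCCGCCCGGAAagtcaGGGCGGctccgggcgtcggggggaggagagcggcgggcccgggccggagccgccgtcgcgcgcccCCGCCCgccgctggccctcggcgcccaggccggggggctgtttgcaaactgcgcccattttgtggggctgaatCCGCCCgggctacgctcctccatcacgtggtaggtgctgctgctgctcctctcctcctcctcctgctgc
SIRT2 is represented by the stretch between its start and the first start of NFKBIB, which runs the other way, because the peaks there lie over both genes.
SIRT2 to NFKBIB, chr19:38899619-38899665, - strand: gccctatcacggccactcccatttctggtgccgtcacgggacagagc

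These promoters varied widely in CpG, also between the starts of a gene without H4K16ac. The 250 bases before MSL3 starts 1, 2 and 3 held 39, 44 and 5 CpG dinucleotides and those before SIRT1 held 32, against a median of 17 over all 21729 promoters in the table. The promoter of MSL1 held 30, the KANSL1 promoters held 27, 18 and 27, and that of MCRS1 held 9. A GC box was found in 9 of the 15 promoters and in 54.5% of all promoters, and an ETS core in 4 of the 15 and in 18.1% of all. The CCAAT box stood in 3 of the 15 and in 32.5% of all promoters. The YY1 core was found in 2 of the 15, which are overlapping windows of MSL3, and in 3.15% of all promoters. The NRF1 motif was found in 1, MSL2 start 1, and in 3.32% of all. No TATA box or CRE was found in the 15 windows, against 8.44% and 2.00% of all promoters. A match is a description of letters in these windows and says nothing of a factor's binding.

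Of the 10 genes, 8 carried all 5 signals within the gene or 5 kb around it, and MSL3 and SIRT1 lacked H4K16ac. H2AZ peaks lay in the windows of 10 of 10 genes in both antibodies' lists, against 81.1% of all protein-coding genes for CST and 81.1% for Abcam. H3.3 peaks lay in 10 of 10 windows, against 73.5% of all genes, and H3K79me2 peaks in 10 of 10, against 62.3%. H4K16ac was found at 8 of 10, against 68.0%. All 5 lists together were found at the remaining 8 genes and at 49.6% of all genes. The genes run from 9844 to 195452 bp, and longer genes give wider windows. Among the 12965 protein-coding genes in this length range, a comparison chosen after the data were seen, H2AZ peaks lay in 85.4% (CST) and 85.3% (Abcam) of windows, H3.3 peaks in 76.5%, H4K16ac peaks in 69.7% and H3K79me2 peaks in 67.3%. The counts for H4K16ac and H2AZ are near this background.

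At the starts, the 9 genes with an annotated start differed from one another mainly in H4K16ac and H3.3. Within 1 kb of a start, H3K79me2 was found at 9 of 9 genes, against 59.6% of the 15411 protein-coding genes with an annotated start. H2AZ was found at 8 of 9 in both lists, all but MCRS1, against 73.4% of all genes for CST and 74.0% for Abcam. H3.3 was found at 7 of 9, all but MCRS1 and SIRT2, against 66.1%. H4K16ac was found at 6 of 9, all but MSL3, SIRT1 and SIRT2, against 54.5%. All 5 lists met at the starts of MSL1, MSL2, KANSL1, KANSL2 and KANSL3, which is 5 of 9, against 39.7%. Since all 9 genes carried H3K79me2 at a start, the 9182 genes that did so are a closer background, chosen after the data were seen. Among these, 97.3% had H2AZ (CST), 97.9% H2AZ (Abcam), 88.8% H3.3 and 70.8% H4K16ac at a start, so the members' shares were not above that background in any of these 4 lists.

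**Figure D1:**
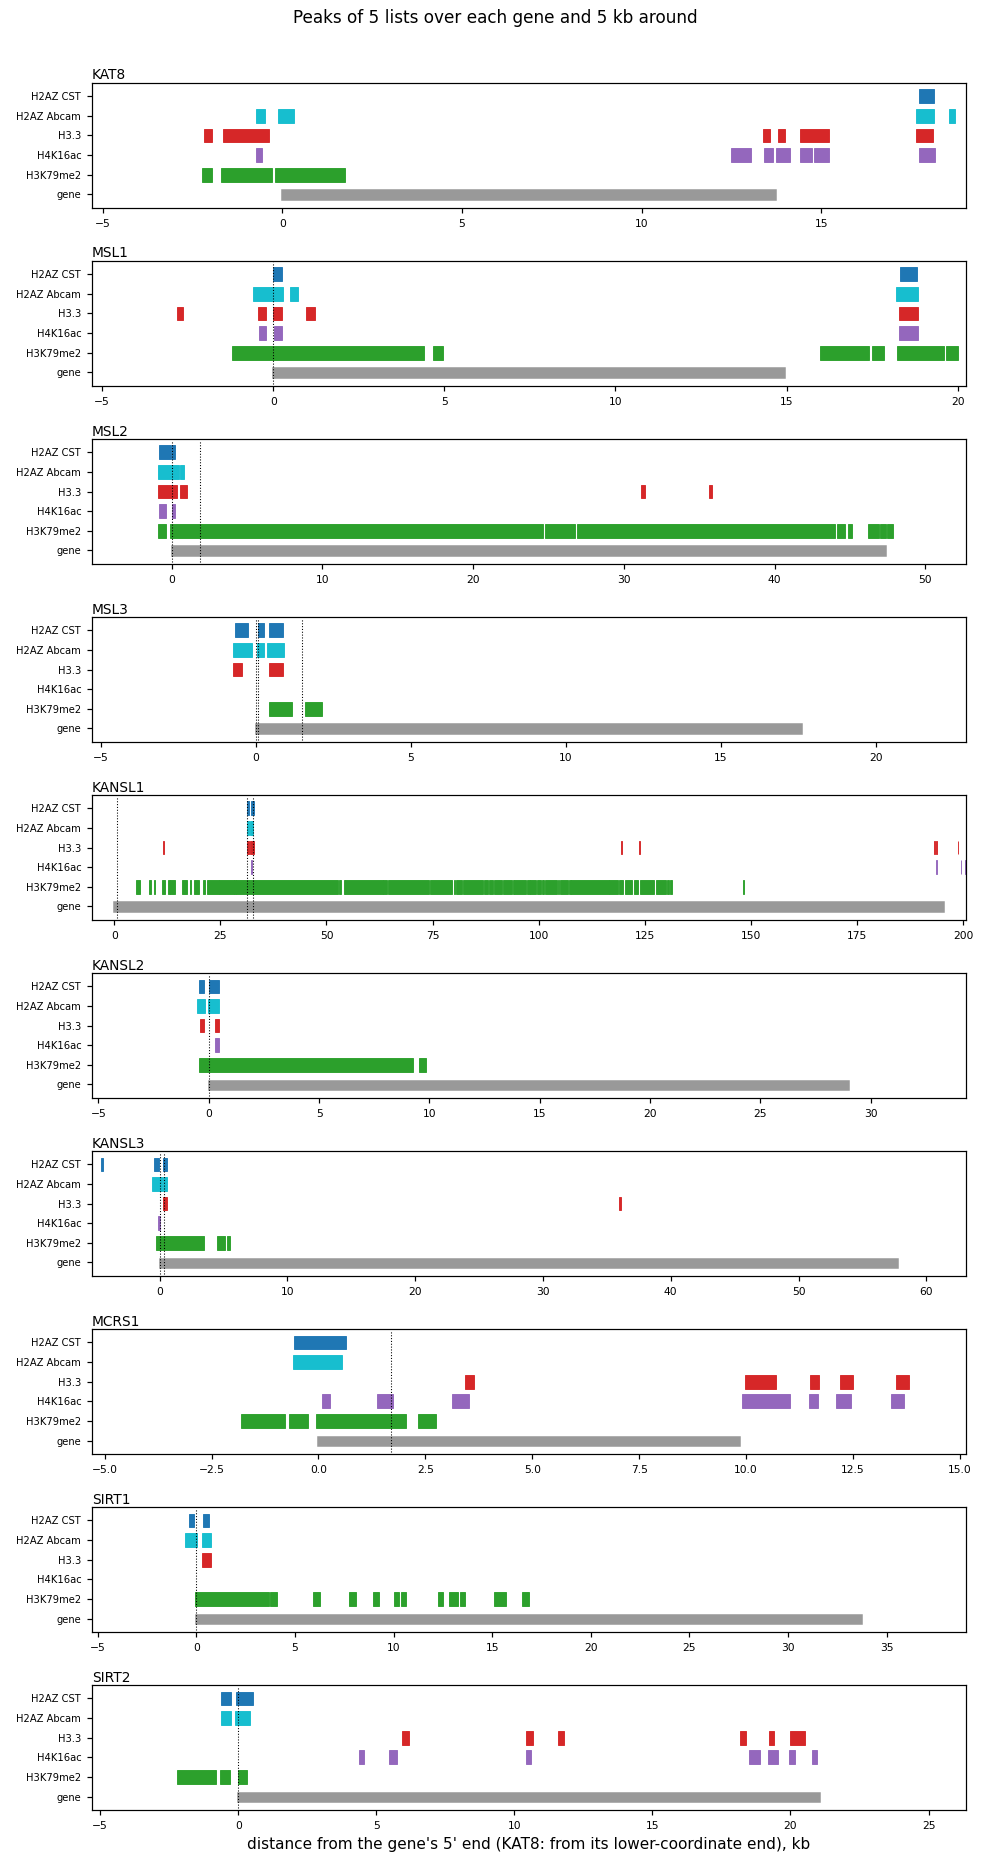
Peaks of the 5 lists over each of the 10 genes and 5 kb around, with position in kb from the gene's 5' end on the horizontal axis (for KAT8, from the lower-coordinate end), 1 row of bars per list, dotted lines at annotated starts and a thin outline on each bar that draws narrow peaks slightly wide. The bars of H3K79me2 run far into MSL2 and KANSL1, and the H4K16ac rows of MSL3 and SIRT1 are empty.

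KAT8, the acetyltransferase gene itself, lies in chr16:31117664-31131393 (hg38), 23 bp from BCKDK at its lower-coordinate end and 39 bp from PRSS8 at its higher end. Its ends carried different signals. At the lower end an H2AZ (Abcam) peak of −log10 q 14.4 had its summit 149 bp inside the gene, and an H3K79me2 peak of 1941 bp and −log10 q 29.2 covered the first 1733 bp of the gene or 12.6% of it. A stronger H3K79me2 peak, with −log10 q 181, lay over BCKDK with its summit at −665 bp from that end of KAT8. No H2AZ (CST) peak lay in the gene, and the only one in the window lay over PRSS8 with −log10 q 8.61. KAT8 was the only one of the 10 genes with no H2AZ (CST) base inside it. H4K16ac gave 7 peaks in the window, of which 2 lay inside the gene near the higher end, 4 over PRSS8 and 1 over BCKDK. The strongest of them, with −log10 q 20.7 and above 96.3% of the H4K16ac list, lay over PRSS8. The −log10 q and fold values here and below are those that the authors' peak caller gave and are compared only within a list.

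The MSL genes covered the range from the strongest H4K16ac peak to none. MSL1, the scaffold, lies in chr17:40121971-40136917 and carried an H4K16ac peak of −log10 q 23.4 and 14.9-fold enrichment with its summit 160 bp downstream of the start. This was the strongest H4K16ac peak over the 10 genes, and 97.9% of the H4K16ac list was weaker. Peaks of the other lists sat at the same place, with summits at 124 bp for H2AZ (CST), 113 bp for H2AZ (Abcam) and 141 bp for H3.3. The H2AZ (Abcam) peak, with −log10 q 178, was likewise the strongest of its list over these genes. An H3K79me2 peak of 5619 bp with −log10 q 523 spanned the start and reached over LOC124904001 on the upstream side, and, with a small second peak, it covered 4692 bp or 31.4% of the gene. Over the neighbouring lncRNA LOC124904001 lay a second H4K16ac peak, with −log10 q 4.41, and an H3.3 peak with 11.7, both upstream of MSL1 and outside it. The first H2AZ (Abcam) peak reached over both genes. 

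MSL2, the ubiquitin ligase gene in chr3:136148917-136196335, was covered by H3K79me2 over 96.2% of its length, and 232 protein-coding genes had a higher share. A single peak of 24805 bp with −log10 q 691 spanned the outer start and lay mostly inside the gene, and 62 of the 54476 H3K79me2 peaks, or 0.114%, were at least as wide. The next widest peak, of 17136 bp, lay further into the gene, with 193 peaks of the list at least as wide. H4K16ac flanked the outer start, with summits at −575 and 90 bp relative to it and −log10 q of 14.8 and 10.9. The inner start had no H2AZ or H4K16ac peak within 1 kb.

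MSL3, the chromodomain gene in chrX:11758159-11775772, had H2AZ on both sides of starts 1 and 2, on the upstream side alone of start 3, and no H4K16ac peak in the window. The H2AZ (Abcam) list held 3 peaks, with −log10 q of 45.6, 75.1 and 127, and the H2AZ (CST) list held 3 with 19.7 to 35.5. H3.3 held 2 peaks, with −log10 q of 17.2 and 11.1. The H2AZ peaks upstream of start 1 and the H3.3 peak there lay over the lncRNA MSL3-DT. This neighbour lies 75 bp from MSL3 and runs the other way, and which gene these peaks belong to cannot be told apart. H3K79me2 was small here, with peaks of 719 and 527 bp that covered 7.07% of the gene. The nearest H4K16ac summit lay 646632 bp from a start of MSL3. Of the 15411 genes with a start, 1.94% lay farther from an H4K16ac summit, and of the 9182 genes with H3K79me2 at a start, 0.436% or 40 genes did.

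**Figure D2:**
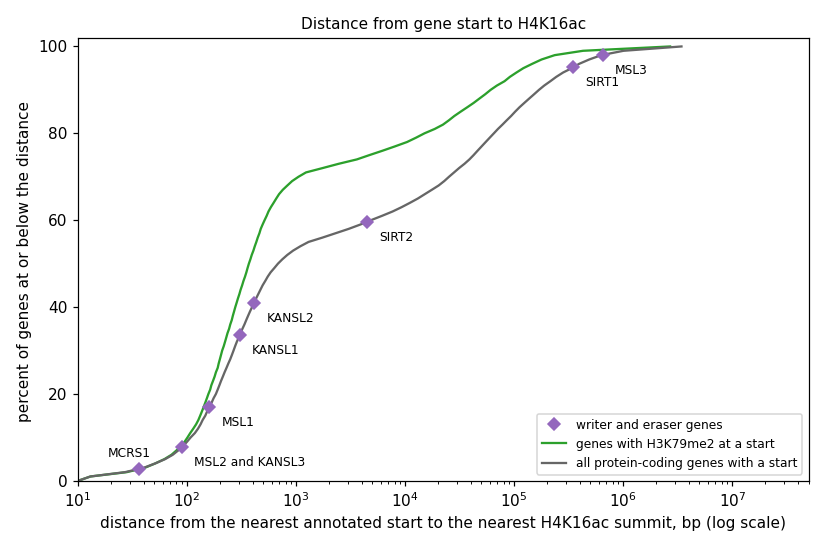
Distance in bp (log axis) from the nearest annotated start to the nearest H4K16ac summit, with the percent of genes at or below that distance on the vertical axis, for all protein-coding genes with a start (grey line) and for those with H3K79me2 at a start (green line). Diamonds are the 9 writer and eraser genes, set on the grey line: 6 lie at 36 to 412 bp, SIRT2 at 4437 bp, and SIRT1 and MSL3 at 346621 and 646632 bp.

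Among the NSL genes, KANSL1 carried its peaks at the inner starts and not at the outermost one. KANSL1 is the scaffold whose loss of 1 copy causes Koolen-de Vries syndrome, and it lies in chr17:46029916-46225367. No list held a peak within 1 kb of start 1, and the nearest summits were 4838 bp away for H3K79me2, 11090 bp for H3.3, 30812 bp for H2AZ (CST) and 31673 bp for H4K16ac. At start 2 the H3.3 peak had −log10 q 83.8, above 98.9% of its list, with its summit 91 bp downstream. The H2AZ peaks there had −log10 q 53.1 (CST) and 76.3 (Abcam), with summits 103 and 105 bp downstream. These H3.3 and H2AZ peaks also lay over the lncRNA KANSL1-AS1, which overlaps start 2, and which gene they belong to cannot be told apart. In the 1268 bp between the inner starts, H2AZ peaks covered 53.4% (CST) and 79.1% (Abcam) of the bases, and H3K79me2 covered 100%, H3.3 90.6% and H4K16ac 14.4%. The strongest H3K79me2 peak, 23957 bp wide with −log10 q 175, spanned both inner starts and reached over KANSL1-AS1.

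H3K79me2 continued along KANSL1 on both sides of the inner starts. It covered 56.1% of the 162867 bp from the lower end of the gene to start 3, and 51.7% of the 30709 bp between start 2 and start 1. In all, 48 H3K79me2 peaks covered 55.5% of the gene. H4K16ac gave 4 peaks in the window, with −log10 q of 4.89 to 8.87, against a median of 7.45 over the whole list, and the 1 near a start had 4.89. Copies of this chromosomal region differ in number between human genomes, and how the authors treated reads that match several places was not given in the sources used here. Any effect of either on the KANSL1 values was not tested.

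KANSL2, in chr12:48653211-48682238, and KANSL3, in chr2:96580494-96638312, showed small H4K16ac peaks beside H2AZ on both sides of the start. KANSL2 had a single H4K16ac peak of 183 bp and −log10 q 7.12, with its summit 412 bp downstream, and KANSL3 a single one of 188 bp and 7.31, with its summit 90 bp upstream of start 1. H2AZ (Abcam) peaks upstream were stronger than those downstream at both genes, with −log10 q of 47.2 and 25.3 at KANSL2 and of 71.5 and 12.6 at KANSL3. In the CST list the upstream peak was the stronger at KANSL3, with 50.1 and 13.5 downstream, but the weaker at KANSL2, with 15.4 and 20.2 downstream. H3K79me2 covered 32.9% of KANSL2, nearly all in a peak of 9708 bp and −log10 q 348, and 7.42% of KANSL3, where the widest peak had 3716 bp.

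MCRS1, in chr12:49558299-49568142, was the only gene of the 9 with no H2AZ within 1 kb of its annotated start. That start, at position 49566439, lies inside the gene, and the H2AZ peaks lay at the gene's higher end, with summits 1598 bp upstream of the start for CST and 1531 bp for Abcam. They were 1238 and 1163 bp wide, with −log10 q of 47.2 and 146. An H4K16ac peak of −log10 q 9.90 had its summit 36 bp from the annotated start, and another of 5.61 lay under the H2AZ peaks. KCNH3 held 4 of the 7 H4K16ac peaks in the window. Among them were the strongest, with −log10 q 18.6 and 14.5, and weaker ones with 6.13 and 4.89. H3K79me2 covered 25.1% of MCRS1.

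Both eraser genes lacked an H4K16ac peak within 1 kb of the start, where 54.5% of all genes with a start had one. SIRT1, in chr10:67884656-67918390, had no H4K16ac peak in the gene or 5 kb around, and the nearest summit lay 346621 bp from its start. Of all genes with a start 4.77% lay farther, and of those with H3K79me2 at a start 1.33%, or 122 genes, did. The other signals were present. H3.3 gave 1 peak of −log10 q 50.7, above 95.7% of its list, with its summit 475 bp downstream. H2AZ lay on both sides of the start, with −log10 q of 11.9 and 14.4 for CST and of 13.8 and 58.9 for Abcam, the stronger peak downstream in each. H3K79me2 gave a peak of 3747 bp and −log10 q 340 over the start and the first part of the gene and 11 smaller ones further in, which together covered 22.3% of the gene.

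SIRT2, in chr19:38878555-38899618, had H4K16ac inside the gene and away from the start. All 7 of its H4K16ac peaks lay in the gene, the nearest summit 4437 bp from the start. Of all genes with a start, 40.4% lay farther from an H4K16ac summit, and of those with H3K79me2 at a start 25.2% did. Of the 7 peaks, 4 had summits 18649 to 20881 bp downstream, towards the end that faces RINL. The −log10 q of the 7 ran between 3.05 and 11.6. The 6 H3.3 peaks were placed alike, with the nearest summit 6126 bp from the start, with −log10 q of up to 11.6. At the start, which lies 47 bp from that of NFKBIB, H2AZ lay on both sides, with −log10 q of 29.8 over SIRT2 and 23.8 over NFKBIB for CST, and of 76.4 and 95.6 for Abcam. H3K79me2 had −log10 q 9.88 over SIRT2 and 24.7 and 18.8 over NFKBIB, and covered 1.45% of SIRT2, the lowest share among the 10 genes. Which of the paired genes the peaks between them belong to cannot be told apart.

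**Figure D3:**
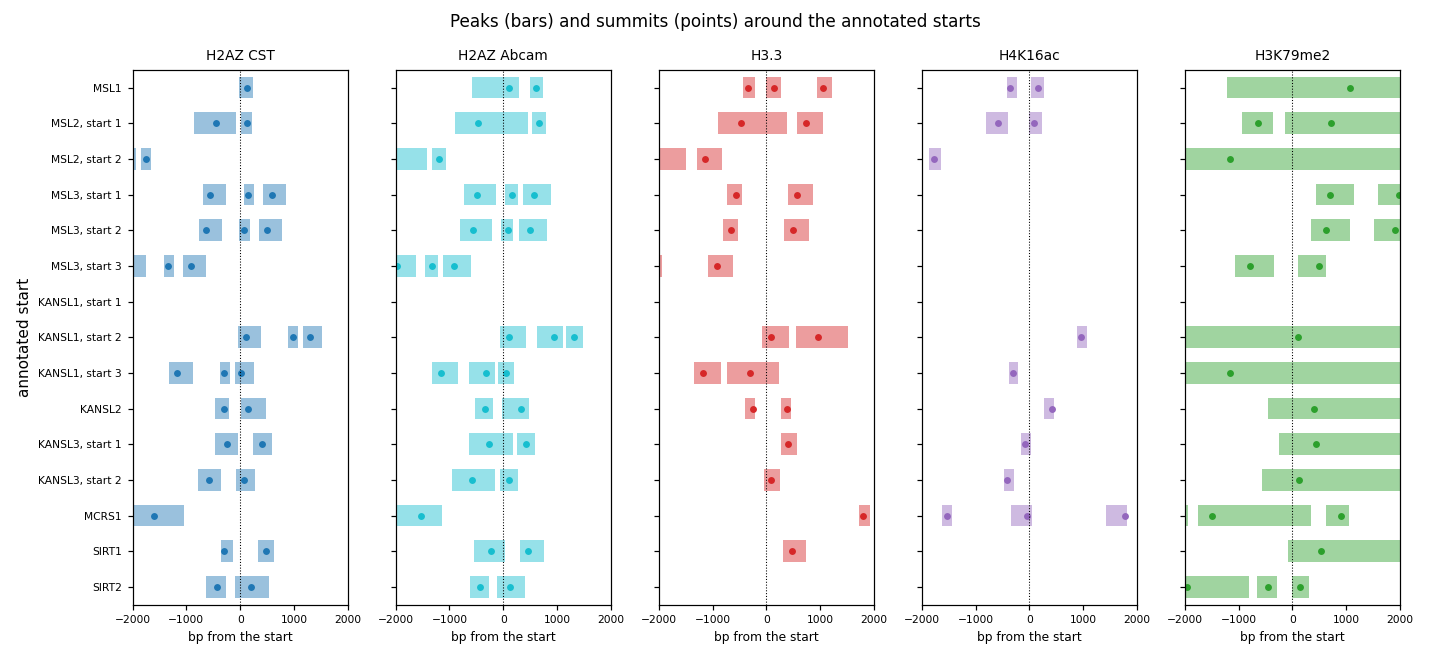
Peak summits and widths of the 5 lists around the annotated starts of the writer and eraser genes, with distance from the start in bp on the horizontal axis. H2AZ lies at the starts of 8 genes, and H4K16ac is missing at MSL3, SIRT1 and SIRT2.

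H2AZ lay on both sides of a start more often than the other signals. Summits on both sides within 1 kb, a rule chosen after the data were seen, were found at 7 of 9 genes for H2AZ (CST), all but MSL1 and MCRS1, against 36.9% of all genes with a start. The same 7 genes had this for H2AZ (Abcam), against 31.0%. H3.3 showed it at 4 of 9, against 26.1%, H4K16ac at MSL1 and MSL2, against 14.3%, and H3K79me2 at MSL2, MSL3 and SIRT2, against 9.99%. A gene with several annotated starts has more chances to meet this rule. The rule was not set against the closer background of genes with H3K79me2 at a start. At MSL3 and SIRT2 the upstream H2AZ summits that met it lay over the neighbours MSL3-DT and NFKBIB. Where no H2AZ (CST) peak lay over the start itself, the stretch free of them measured 94 bp at MSL2, 232 bp at KANSL2, 273 bp at KANSL3 start 1, 330 bp at MSL3 start 1 and 481 bp at SIRT1. In the Abcam list a peak lay over the start at 4 of these 5, and the free stretch at MSL3 start 1 measured 172 bp.

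H3K79me2 covered a larger share of these genes than of the median gene. The median over the 10 genes was 23.7%, against 1.37% over all protein-coding genes and 2.62% over those in the same length range, and the genes ran from 1.45% at SIRT2 to 96.2% at MSL2. All 10 lay above the median of all genes, and 9 above that of the length range, the exception being SIRT2. Both medians include genes without H3K79me2, since 62.3% of all genes and 67.3% of the length range had a peak in the window. Coverage was not compared with that of genes carrying the mark alone. For H3.3 the medians were 1.72%, against 0.833% over all genes and 0.894% in the length range, and for H2AZ (Abcam) 1.80%, against 1.20% and 1.29%. H2AZ (CST) gave 1.22%, against 1.05% and 1.15%, and H4K16ac gave 0.558%, against 0.497% and 0.591%, with 5 of 10 genes above either median in both lists. KAT8, MCRS1 and SIRT2 had the most H4K16ac per length, at 5.85%, 9.67% and 8.79% of the gene.

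**Figure D4:**
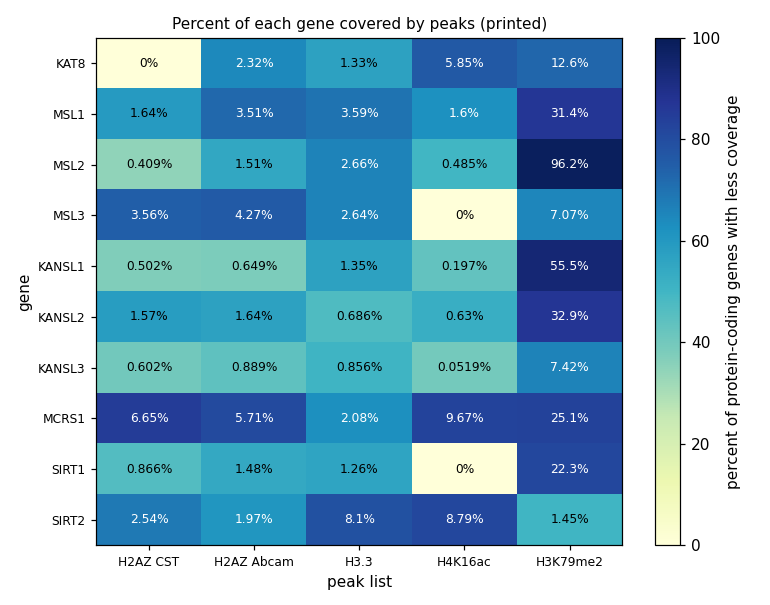
Percent of each of the 10 genes covered by peaks of each list, printed in the cells. The colour gives the percent of all protein-coding genes with less coverage in the same list, and MSL2 has 96.2% under H3K79me2.

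The lists also differed in where along the genes their peaks lay. A peak counted as near a start if its summit lay within 1 kb of one. For KAT8, which has no annotated start in the table, either end of the gene was used instead. Of the 21 H2AZ (CST) peaks over the genes and their flanks, 17 counted as near a start, and of the 24 H2AZ (Abcam) peaks 20 did. Of the 92 H3K79me2 peaks, 13 lay near a start and 70 elsewhere in a gene, with 48 of the 92 at KANSL1. Of the 32 H4K16ac peaks 13 lay near a start or an end of KAT8, 10 elsewhere in a gene and 9 in the flanks. All 9 in the flanks lay over another gene. Of the 41 H3.3 peaks these counts were 15, 16 and 10. The counts near a start of all lists but H2AZ (CST) thus include peaks at an end of KAT8. In each of these lists a peak so counted had its summit over BCKDK, and in the H3.3 and H4K16ac lists some had summits over PRSS8. The same counts were not made for the whole lists.

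Most H4K16ac peaks over these genes and their flanks overlapped H3.3. At least 1 bp was shared with an H3.3 peak by 23 of the 32 H4K16ac peaks (71.9%), against 58.8% of the whole H4K16ac list. Of these 32 peaks, 17 had their summit inside one of the genes. The shared peaks include those over the neighbours PRSS8 and KCNH3, so the share does not describe the genes alone. Seen from H3.3, 20 of its 41 peaks (48.8%) were shared, against 60.6% of the whole list. For H2AZ (CST), 20 of 21 peaks (95.2%) overlapped H2AZ (Abcam), against 72.6% of the list, and 16 of 21 (76.2%) overlapped H3K79me2, against 32.8%. All 10 genes had H3K79me2 in the window, whereas the whole H2AZ (CST) list also holds peaks away from genes with that mark. The overlap with H3K79me2 was not compared with that at other genes carrying the mark. Of the H3K79me2 peaks 9 of 92 (9.78%) overlapped H4K16ac, against 26.9% of that list. Without KANSL1, which held 48 of them, 8 of 44 (18.2%) did.

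Other genes of the same machinery varied in the same signals. The other NSL subunits PHF20, HCFC1, WDR5 and OGT had H3K79me2, H3.3 and H4K16ac in 4 of 4 windows and H2AZ in 3 of 4, all but OGT, in both lists. HCFC1, a transcriptional coregulator, was covered by H4K16ac over 43.7% and by H3.3 over 53.1% of its length, more than any of the 10 genes. The other MYST acetyltransferases KAT5, KAT6A, KAT6B and KAT7 had all 5 signals in 4 of 4 windows. The other sirtuins had H2AZ and H3.3 in 5 of 5 windows and H4K16ac and H3K79me2 in 4 of 5, all but SIRT4. The class I deacetylases HDAC1, HDAC2, HDAC3 and HDAC8 had H2AZ and H3K79me2 in 4 of 4 windows, and H3.3 and H4K16ac in 3 of 4, all but HDAC8. Among genes with an annotated start, H4K16ac lay within 1 kb of one at 1 of 4 other sirtuins and 1 of 3 other NSL subunits. It did so at 3 of 3 other MYST acetyltransferases and 3 of 4 class I deacetylases, against 54.5% of all genes.

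Marker genes were checked once for the line. H3K79me2 lay in the windows of 0 of 6 genes of other tissues (ALB, INS, HBB, CD3E, MYH7, KRT5). It lay in those of 4 of 6 kidney development genes, all but PAX8 and EYA1, against 62.3% of all protein-coding genes. H4K16ac lay in the windows of 2 of the 6 genes of other tissues and of 6 of 6 kidney development genes, against 68.0% of all. Of the genes of other tissues, INS was covered by H4K16ac over 59.6% and by H3.3 over 60.7% of its length. The whole lists held 52325 (CST) and 44634 (Abcam) H2AZ peaks, while H3K79me2 had 54476, H3.3 72287 and H4K16ac 76748. No source used here gives the read depth of a library, so a missing peak means that none passed the authors' threshold at an unknown depth, not that the mark was absent.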

How the data were processed

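Peak lists from 5 ChIP-seq libraries of HEK293T cells were used, 1 per antibody. The submitters' processing notes name MACS2 2.1.0, Bowtie 1.1.2, Trimmomatic 0.33 and bcl2fastq 2.17 with build hg38. Settings, the use of the input and read depth were not given in the sources used here. For each peak the deposited lists, 1 per library, hold the authors' fold enrichment, a linear ratio, and the authors' −log10 q-value. These values were compared only inside 1 list, and the −log10 q is at least 2.00 in every list.

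Peaks on chromosomes 1 to 22 and X were mapped with Python 3.11.15, pandas 2.3.3 and numpy 2.4.6 to RefSeq genes of assembly GRCh38.p14, the assembly of hg38, with an overlap of at least 1 bp counting. Starts and strands came from the RefSeq promoter table. Exons and untranslated regions were not assigned. The mapping was tested on simulated peaks with known positions. Without replicates no test was made; peak counts and coverage are set beside all protein-coding genes of at least 1 kb. All 10 genes are named, with other genes from lists. The members and lists were chosen with earlier results of these data known. Alternatives were other windows, stricter peaks and other overlap rules.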

Additional observations from a re-analysis of the deposited data

How the results depend on the processing

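Of 100 alternative values, 77 stayed within 1.5 times of the reported one. The 10000 strongest peaks of each list changed most: the genes with a peak in the window were then 5 and 5 in the CST and Abcam H2AZ lists, 4 for H3.3 and 4 for H4K16ac, and those with a peak within 1 kb of a start 4, 4, 4 and 2 in the same order. The median percent of a gene covered was then 0 for H2AZ (CST), H2AZ (Abcam), H3.3 and H4K16ac and 15.4 for H3K79me2. The strictness of this rule differs between lists, since the weakest peak kept had −log10 q 33.3 and 93.8 for the CST and Abcam H2AZ lists, 46.8 for H3K79me2, 27.3 for H3.3 and 14.3 for H4K16ac. With 5 kb on both sides counted, the median percent covered was 2.79 for H2AZ (Abcam) and 3.26 for H3.3. The other values beyond 1.5 times were 8 counts of peaks, all lower: over the genes alone 12 for H2AZ (CST), 26 for H3.3 and 18 for H4K16ac, and among the strongest peaks 5, 6, 5, 6 and 14 for the H2AZ lists (CST, Abcam), H3.3, H4K16ac and H3K79me2 in turn. Backgrounds of genes in the same length range, of genes with H3K79me2 at a start and of summits on both sides of a start were added after the data were seen, as was leaving out each gene in turn from the overlaps. Without KANSL1 the share of H3K79me2 peaks that overlapped another list was 27.3% (CST) and 31.8% (Abcam) for H2AZ, 25.0% for H3.3 and 18.2% for H4K16ac; no other overlap share moved by over 1.5 times with any gene left out. No paired analysis was possible because each antibody had 1 library and no test was made. Depth is unknown, so the absence of H4K16ac peaks at MSL3 and SIRT1 holds for these lists only.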

Other observations

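Several peaks in the windows lay over neighbouring genes. At the far side of MSL1, a cluster of peaks from all 5 lists sat at the end of CASC3 that lies 3619 bp from the gene, where −log10 q was 26.8 (CST) and 134 (Abcam) in the H2AZ lists, 61.9 in H3.3, 11.4 in H4K16ac and 134 in H3K79me2. The H3.3 peak there was above 97.4% of its list and stronger than the H3.3 peak at the start of MSL1, with −log10 q 30.1. Over PRSS8, next to KAT8, H4K16ac and H3.3 shared 4 and 3 peaks, with no H3K79me2 among the lists that overlapped them. At KCNH3, which overlaps the lower end of MCRS1, each of the 4 H4K16ac peaks overlapped an H3.3 peak and none overlapped H2AZ or H3K79me2.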
